A study of Danio rerio with 2 samples.

Results

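The genes that make, conjugate and move bile acids were examined in liver poly(A) RNA of high-fat-fed zebrafish (Danio rerio). The set comprised 9 genes, cyp7a1, cyp8b1, cyp27a1.1, cyp27a1.4, hsd3b7, akr1d1, baat, abcb11b and slc10a1. Every row of the deposited table carrying one of these names, or a numbered copy of one, was kept. This gave 12 rows of 25939. No row was matched to akr1d1 or baat, so both are not analysed here. One library came from wild-type fish on the high-fat diet and 1 from fish labelled as ambp knockout (ambp-/-) on the same diet. Age, sex, the allele and the number of fish behind each library are not given in the sources used here. With 1 library per genotype there is no replicate check, so all differences describe these 2 libraries and no p-value is given.

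Bile acids are made from cholesterol in hepatocytes. In the classic route of mammals, CYP7A1 adds the first hydroxyl group to the sterol ring and sets the rate, HSD3B7 changes the ring's double bond, CYP8B1 adds the hydroxyl group that distinguishes cholic acid, and AKR1D1 reduces the ring. CYP27A1 of mitochondria oxidises the side chain, peroxisomes shorten it, and BAAT joins the acid to taurine or glycine. ABCB11, the bile salt export pump, then moves the product into bile, and SLC10A1 returns bile salts from blood. Zebrafish mainly carry a sulfated bile alcohol, cyprinol sulfate, in place of the bile acids of mammals, so steps known from mammals need not carry the same weight in this fish.

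Library totals were 15659846 estimated reads for wild type and 18357830 for the knockout. One read equalled 0.0697 CPM (reads scaled to a common library size with TMM factors) in wild type and 0.0499 CPM in ambp-/- liver. The targeted gene ambp (ENSDARG00000004296) stood at 50280 reads in wild type and 3085 in ambp-/- liver, 22.8-fold lower (22.0 to 23.6). Intervals here and below are 95% intervals that cover counting error only. Of 20 kept rows of a hepatocyte marker list, 19 lay within 2-fold, ambp being the other, the median log2 ratio was -0.13, and the rows summed to 250732 and 221980 CPM. The list's cps1 was at 0 in both libraries. Markers of some other cells differed between the libraries. Of 15 kept exocrine pancreas rows 14 were at least 2-fold higher in ambp-/- liver, against 5.40% of all kept rows. They summed to 44.8 CPM in wild type and 518 CPM in ambp-/- liver, with no row at 0. Of 15 kept macrophage rows 6 were at least 2-fold higher, with 381 and 546 CPM summed and 4 of all 20 rows at 0 in both. The bile duct list was mixed: of 11 kept rows 2 were at least 2-fold higher and 5 had log2 ratios below 0. It summed to 2170 and 2607 CPM. Of this sum krt8 held 1094 and 1081 CPM, krt18a.1 491 and 1065 CPM, and ANXA4 514 and 371 CPM. The list's cftr and spp1 were at 0 in the knockout library, from 4 reads and 1 read in wild type. Intestine rows summed to 3740 and 3415 CPM, mostly from 2 RBP2 rows at 2349 and 2264 CPM and at 879 and 815 CPM. FABP2 stood at 258 and 170 CPM, and slc51a at 244 and 163 CPM. In the same list cdx1b had 0 reads in both libraries, SLC10A2 had 0 and 1, and FABP6 had 0 and 2. Erythroid rows summed to 471 and 274 CPM. The part of these cells in the results for the bile acid genes was not tested. In bulk liver, fewer cells of a type and less RNA per cell cannot be told apart.

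Most bile acid genes lay slightly lower in the knockout library, while the named cyp7a1 gene lay higher, with the abundant cyp27a1.1 and ABCB11 turning to slightly higher when library totals were used. Of the 12 rows, 11 reached 1 CPM in a library. Of these 11, 10 had log2 ratios below 0 and 1 above, with a median of -0.43 and a range from -1.15 to 0.43. The 11 rows include 3 of cyp8b1 and 4 of cyp27a1, so they are not 11 separate genes. All log2 ratios are knockout over wild type with 1 CPM added. Over all 11634 kept rows of the table the median was 0.00, the middle 50% lay between -0.40 and 0.39, and 49.8% lay above 0. By a 2-fold size rule 2 of the 11 bile acid rows were lower, against 6.40% of all kept rows, and 0 were higher, against 5.40%; 11.8% of all kept rows passed in either direction. Both rows past the rule are minor copies of cyp8b1, and 9 rows were between the limits. Of these copies, ENSDARG00000097559 reached 1 CPM through the wild-type library alone. With the copies of cyp8b1 and of cyp27a1 summed, 6 rows remained, with a median of -0.33 and 0 past the rule in either direction. Another scaling shifts every row by the same factor. With library totals the median of all kept rows moved to 0.22 and that of the bile acid rows to -0.18, a difference of -0.40, and the split of all kept rows past the rule went from 628 higher and 744 lower to 1071 and 485. Scaled by the single hepatocyte gene fabp10a, the median of all kept rows was 0.53 and that of the bile acid rows 0.17, a difference of -0.36, and 6 of the 11 bile acid rows turned to higher.

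**Figure D1:**
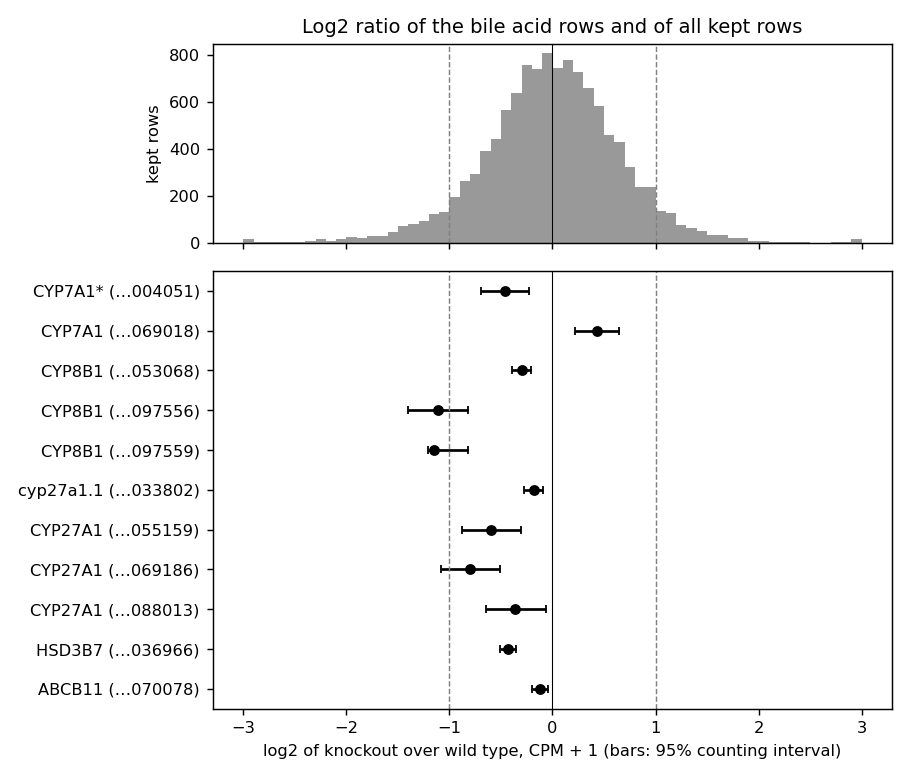
Top: number of kept rows (11634) by log2 ratio of knockout over wild type, with 1 CPM added and values past 3 drawn at the edge. Bottom: the 11 kept bile acid rows, with the last digits of their Ensembl identifiers, each with its 95% counting interval; dashed lines mark 2-fold, and the asterisk marks the row that only the deposited table calls CYP7A1. CYP7A1 (ENSDARG00000069018) lies above 0, at 0.43, the other 10 lie below (cyp27a1.1 and ABCB11 lie above 0 with library totals), and 2 CYP8B1 rows lie past the lower line.

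The named gene of the first step of the classic route was the exception in direction. CYP7A1 (ENSDARG00000069018) had 254 reads in wild type, 17.7 CPM (15.6 to 20), and 485 in ambp-/- liver, 24.2 CPM (22.1 to 26.4). The level was 1.37-fold higher in ambp-/- liver (1.17 to 1.6), a log2 ratio of 0.43, within the 2-fold rule. The intervals of the 2 libraries do not overlap, and 23.3% of all kept rows had a log2 ratio at least as high. The ratio stayed above 1 under each scaling tried, at 1.63 with library totals and 1.49 with the hepatocyte list centred. Scaled by fabp10a, CYP7A1 was 2.08-fold higher, a log2 ratio of 1.02, and so past the 2-fold rule there.

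A different row, ENSDARG00000004051, is called CYP7A1 in the deposited table but has no name in the table of Ensembl names. It had 258 reads in wild type, 18 CPM (15.9 to 20.3), and 256 in ambp-/- liver, 12.8 CPM (11.3 to 14.4). It was 1.41-fold lower (1.18 to 1.68), the opposite direction to the named gene, although scaled by fabp10a alone it was 1.08-fold higher. RefSeq (assembly GRCz12tu) lists cyp7a1 and a second gene, cyp7a1b, on different chromosomes. Whether this row is cyp7a1b was not tested. The pair had almost equal reads in wild type, with 98.4 reads of the named gene per 100 of the other, and 189 per 100 in ambp-/- liver. That within-library ratio, into which no scaling enters, was 1.92-fold higher in ambp-/- liver (1.52 to 2.44). Summed, both rows amounted to 35.7 CPM in wild-type and 37 CPM in ambp-/- liver, a ratio of 1.04 (0.924 to 1.16).

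The ring-modifying enzyme after cyp7a1 was lower under each scaling but that by fabp10a. HSD3B7 (ENSDARG00000036966) had 2447 reads in wild type, 171 CPM (164 to 178), and 2528 in ambp-/- liver, 126 CPM (121 to 131). It was 1.35-fold lower (1.28 to 1.43). The ratio was 0.881 with library totals and 1.13 when scaled by fabp10a. Per 100 HSD3B7 reads there were 10.4 CYP7A1 reads in wild type and 19.2 in ambp-/- liver, a 1.85-fold higher ratio (1.57 to 2.18). The named CYP7A1 row and HSD3B7, 2 consecutive steps of the classic route, therefore differed relative to each other by more than counting error. The second row called CYP7A1 had a ratio of 0.71, beside 0.739 for HSD3B7.

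The hydroxylase cyp8b1 was lower in all 3 of its rows, mildly in the abundant copy (higher when scaled by fabp10a) and more in the minor ones. The abundant CYP8B1 row, ENSDARG00000053068, had 1721 reads in wild type, 120 CPM (114 to 126), and 1952 in ambp-/- liver, 97.4 CPM (93.1 to 102). It was 1.23-fold lower (1.15 to 1.32), with a ratio of 0.968 with library totals and 1.24 when scaled by fabp10a. The CYP8B1 row ENSDARG00000097556 had 196 reads in wild type, 13.7 CPM (11.8 to 15.7), and 116 in ambp-/- liver, 5.79 CPM (4.78 to 6.94). It was 2.36-fold lower (1.87 to 3), a log2 ratio of -1.11, which was -0.88 with library totals and so inside the 2-fold rule there. The CYP8B1 row ENSDARG00000097559 had 19 reads in wild type and 1 in ambp-/- liver, 1.32 CPM (0.798 to 2.07) against 0.0499 CPM (0.00126 to 0.278). It reached 1 CPM through the wild-type library alone, and its ratio of 26.6 (4.22 to 1103) rests on a single knockout read.

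RefSeq lists cyp8b1.1, cyp8b1.2 and cyp8b1.3 next to each other with 0 other genes between them, and near-identical copies can share reads. The deposited estimated reads were not whole in all 3 CYP8B1 rows of the wild-type library and in 0 of 3 in ambp-/- liver. The wild-type values added up to 1935 reads, whole within 0.02, so the fractions cancel within the family. This sum does not depend on how reads were divided among the copies, provided that reads were shared only inside the family, which was not tested. It stood at 135 CPM (129 to 141) in wild type and 103 CPM (98.8 to 108) in ambp-/- liver, a ratio of 0.765 (0.719 to 0.814), which was 0.912 with library totals and 1.17 when scaled by fabp10a. The abundant row took 88.9% of the family's reads in wild type and 94.3% in ambp-/- liver, and ENSDARG00000097556 took 10.1% and 5.61%. Per 100 reads of the abundant row, ENSDARG00000097556 had 11.4 in wild type and 5.94 in ambp-/- liver, 0.522 of the wild-type ratio (0.407 to 0.666), a value that the division of shared reads could move.

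The balance between the named CYP7A1 row and the cholic acid hydroxylase differed between the libraries. Per 100 reads of the abundant CYP8B1 row there were 14.8 CYP7A1 reads in wild type and 24.8 in ambp-/- liver, 1.68-fold higher (1.42 to 1.99). This does not extend to the second row called CYP7A1, ENSDARG00000004051, which was itself 1.41-fold lower. Both CYP7A1 rows summed had a ratio of 1.04 (0.924 to 1.16). CYP8B1 per HSD3B7 was 70.3 and 77.2 per 100, a ratio of 1.1 (1.01 to 1.2), and cyp27a1.1 per HSD3B7 was 77.2 and 91.8 per 100, a ratio of 1.19 (1.09 to 1.29).

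**Figure D2:**
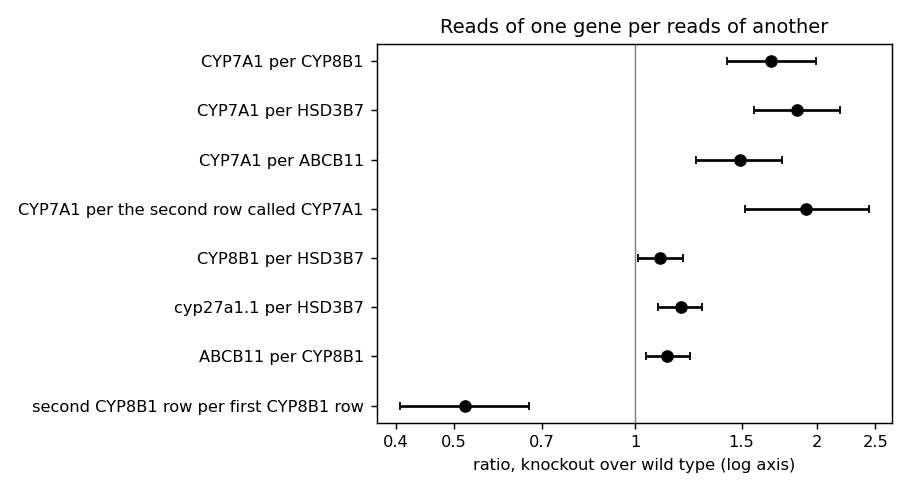
Reads of one gene per reads of another within a library, as the ratio of the knockout to the wild-type value (log axis), with 95% counting intervals; scaling does not enter. The first CYP8B1 row is ENSDARG00000053068, the second is ENSDARG00000097556, and the second row called CYP7A1 is ENSDARG00000004051. The 4 ratios with CYP7A1 on top lie between 1.49 and 1.92.

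The side-chain oxidase cyp27a1 had 1 abundant copy that differed little and 3 minor rows that were lower, 1 of which turned when scaled by fabp10a. The row named cyp27a1.1, ENSDARG00000033802, had 1888 reads in wild type, 132 CPM (126 to 138), and 2320 in ambp-/- liver, 116 CPM (111 to 121). It was 1.14-fold lower (1.07 to 1.21), and the direction turned with library totals, where the ratio was 1.05. The CYP27A1 row ENSDARG00000055159 reached 12.3 CPM in wild-type liver and 7.78 CPM in ambp-/- liver, from 176 and 156 reads, 1.58-fold lower (1.26 to 1.97). Its copy ENSDARG00000069186 stood at 12.7 and 6.89 CPM, from 182 and 138 reads, 1.84-fold lower (1.47 to 2.32). The last, ENSDARG00000088013, stood at 10.6 and 8.03 CPM, from 152 and 161 reads, 1.32-fold lower (1.05 to 1.66), with the direction turning only when scaled by fabp10a, to 1.16. The 3 rows share 1 name, so which of them is cyp27a1.4 was not settled here.

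All 3 minor CYP27A1 rows held fractions of reads in both libraries, yet together they summed to whole numbers within 0.02, 510.00 reads in wild type and 455 in ambp-/- liver. The split among them is therefore an estimate, while the sum was 35.6 CPM (32.5 to 38.8) in wild type and 22.7 CPM (20.7 to 24.9) in ambp-/- liver. The ratio was 0.638 (0.561 to 0.726), and it stayed below 1 at 0.973 when scaled by fabp10a. The 3 rows took near-equal parts: ENSDARG00000069186 held 35.8% of their reads in wild type and 30.3% in ambp-/- liver, and ENSDARG00000088013 held 29.7% and 35.4%. With cyp27a1.1 included, the family stood at 167 and 138 CPM, a ratio of 0.828 (0.784 to 0.875), which was 0.987 with library totals and 1.26 when scaled by fabp10a. The related genes cyp27a3 (ENSDARG00000057262) and cyp27a2 (ENSDARG00000073764), which the deposited table also calls Cyp27a1, are not members and had log2 ratios of 0.13 and 0.88, from 477 and 729 reads and from 46 and 135 reads.

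**Figure D3:**
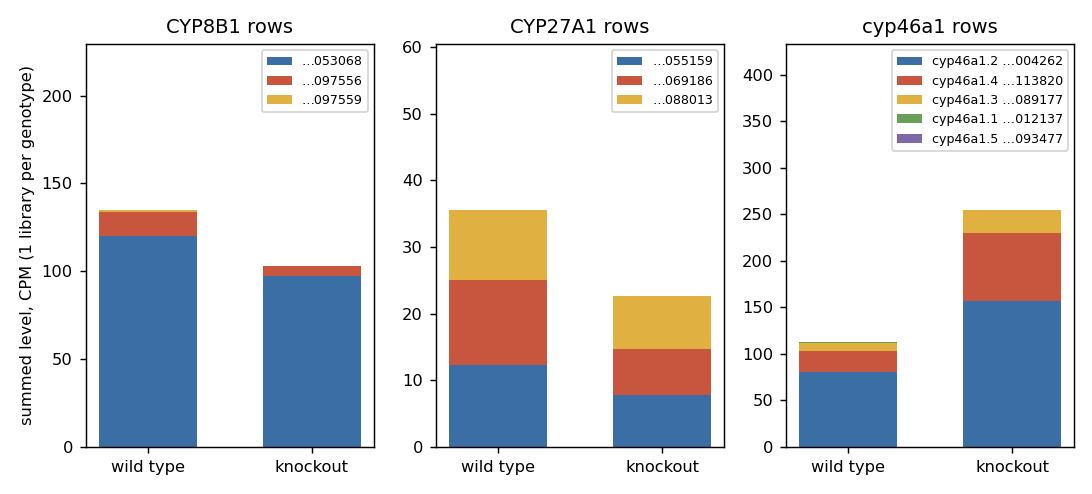
Summed CPM of the copies of CYP8B1, CYP27A1 (the 3 rows without cyp27a1.1) and cyp46a1 in the wild-type and the knockout library, each colour 1 Ensembl row; vertical scales differ between panels. The CYP8B1 bars reach 135 and 103 CPM, the CYP27A1 bars 35.6 and 22.7 CPM, and the cyp46a1 bars 113 and 255 CPM.

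The export pump was nearly level and the uptake carrier was not detected. ABCB11 (ENSDARG00000070078), taken as abcb11b because abcb11a has an identifier of its own, had 2587 reads in wild type, 180 CPM (173 to 187), and 3324 in ambp-/- liver, 166 CPM (160 to 172). It was 1.09-fold lower (1.03 to 1.15), and the direction turned with library totals, where the ratio was 1.1. With the hepatocyte list centred the ratio was 1, and scaled by fabp10a it was 1.4. Its reads per CYP8B1 read were 1.13-fold higher in ambp-/- liver (1.04 to 1.23). The paralog abcb11a (ENSDARG00000011573) had 0 and 2 reads. SLC10A1 (ENSDARG00000030588) had 0 reads in both libraries. Its 95% Poisson interval reaches up to 0.257 CPM in wild type and 0.184 CPM in ambp-/- liver. A floor of 3 reads would equal 0.209 and 0.150 CPM.

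**Figure D4:**
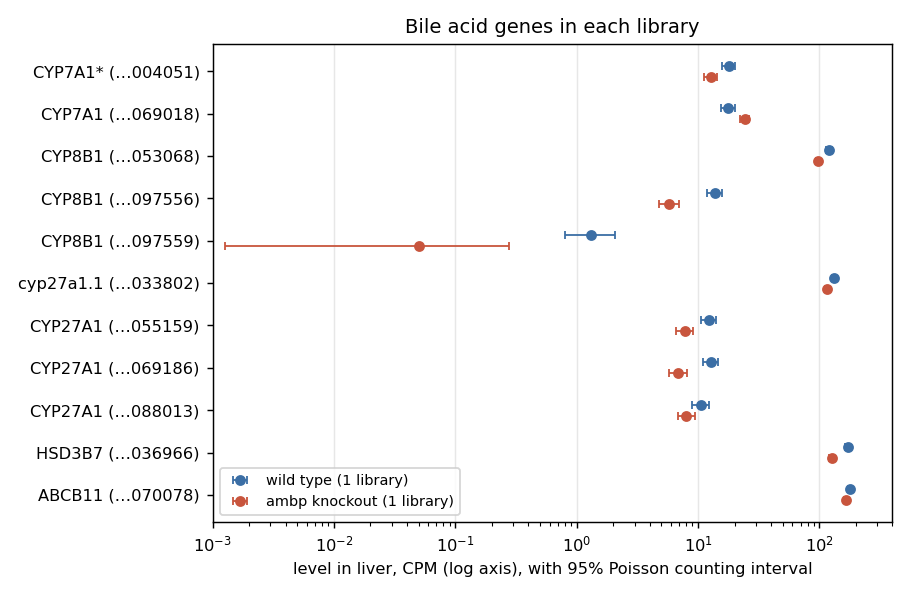
Level of each kept bile acid row in CPM (log axis) in the wild-type and the knockout library, with 95% Poisson intervals for counting error; the asterisk marks the row named only by the deposited table. The 2 libraries lie close for ABCB11 (180 and 166 CPM) and furthest apart for the CYP8B1 row ENSDARG00000097559, which has 19 reads and 1 read.

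Compared per length with the authors' deposited FPKM values, the order of the abundant genes was the same in both libraries. The FPKM intervals are the counting intervals of the reads behind them. In wild type HSD3B7 led at 87.62 FPKM (84.2 to 91.2), followed by the abundant CYP8B1 row at 55.64 (53.0 to 58.3) and cyp27a1.1 at 50.78 (48.5 to 53.1), whose intervals overlap slightly. ABCB11 followed at 22.22 FPKM and CYP7A1 at 8.16 (7.19 to 9.23). In ambp-/- liver HSD3B7 stood at 77.35 FPKM, CYP8B1 at 53.84 (51.5 to 56.3), cyp27a1.1 at 53.23 (51.1 to 55.4), ABCB11 at 24.49 and CYP7A1 at 13.3 (12.1 to 14.5). CYP8B1 and cyp27a1.1 thus did not differ beyond counting error there. In wild type CYP7A1 was close to the minor copies, with overlapping intervals: the CYP27A1 row ENSDARG00000069186 had 6.41 FPKM (5.51 to 7.41) and the CYP8B1 row ENSDARG00000097556 had 6.35 (5.49 to 7.30). In ambp-/- liver these stood at 4.12 FPKM (3.46 to 4.87) and 3.21 (2.65 to 3.85), well under CYP7A1.

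Other enzymes of sterol hydroxylation and side-chain shortening had a median above that of all kept rows. Of 35 rows of this list 25 were kept, with a median log2 ratio of 0.32, 4 rows higher by 2-fold and 1 lower, against 5.40% and 6.40% of all kept rows. With library totals 6 were higher and 1 lower, and the median was 0.56. Brain-type cholesterol hydroxylase, cyp46a1, which in mammals opens another route from cholesterol, had 5 rows. The most abundant, cyp46a1.2, had 1157 reads in wild type and 3144 in ambp-/- liver, 80.7 and 157 CPM, 1.94-fold higher (1.82 to 2.08), just under the rule at a log2 ratio of 0.95 and past it, at 1.2, with library totals. The copy cyp46a1.4 was 3.33-fold higher (2.95 to 3.77), at 22.1 and 73.6 CPM, and cyp46a1.3 was 2.59-fold higher (2.13 to 3.16), at 9.20 and 23.8 CPM. Fractional reads stood in 4 of the 5 copies, cyp46a1.3 being whole in both libraries. Summed over the 5 copies, the family was 2.26-fold higher (2.14 to 2.39), at 113 and 255 CPM.

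The remaining rows past the rule in this list were of peroxisomes and electron supply. The acyl-CoA oxidase gene ACOX3 was 2.73-fold higher (2.44 to 3.07) and scp2b, a copy of the peroxisomal sterol carrier gene, 3.11-fold (2.47 to 3.96), from 91 and 396 reads. The far more abundant scp2a stood at 3456 and 2852 CPM, a log2 ratio of -0.28, and POR (ENSDARG00000059035), which passes electrons to microsomal P450 enzymes such as CYP7A1 and CYP8B1, at 811 and 938 CPM, a log2 ratio of 0.21. Ferredoxin, fdx1 (ENSDARG00000056410), which passes electrons to mitochondrial P450 enzymes such as CYP27A1, had 4712 reads in wild type and 2470 in ambp-/- liver. It was 2.67-fold lower (2.54 to 2.80). Its partner reductase gene FDXR, named after its values were seen, had 5 and 27 reads.

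Transport and bile lipid genes were spread to both sides. Of 35 rows 19 were kept, with a median log2 ratio of -0.03, 2 rows higher by 2-fold and 3 lower, against 5.40% and 6.40% of all kept rows. With library totals the median was 0.21 and the split turned to 3 higher and 2 lower, as it did with the hepatocyte list centred. ABCC4, which in mammals exports bile salts back to blood, had 469 reads in wild type and 106 in ambp-/- liver, 32.7 and 5.29 CPM, 6.18-fold lower (5 to 7.71). The transporter gene abcg2c was 3.18-fold lower (2.36 to 4.33), at 10.3 and 3.24 CPM. Its more abundant copy abcg2a, named after its values were seen, was nearly level at 98.7 and 95.5 CPM, a log2 ratio of -0.05. AQP8, a water channel gene, was 2.05-fold lower (1.86 to 2.26), at 72.1 and 35.1 CPM, and its log2 ratio was -0.77 with library totals, inside the rule. Both higher rows are CEL, the bile salt-activated lipase of exocrine pancreas, at 0.906 and 15.5 CPM (ENSDARG00000017490) and at 2.02 and 15.1 CPM (ENSDARG00000029822), the former reaching 1 CPM through the knockout library alone. They also belong to the pancreas marker list that was higher in the same library, and the part of pancreatic RNA in this list was not tested. The most abundant rows were fabp10a, the bile acid binding protein of the fish hepatocyte, at 15294 and 10033 CPM, 1.52-fold lower (1.52 to 1.53), and slco1d1, an organic anion carrier gene, at 393 and 764 CPM, 1.94-fold higher (1.88 to 2).

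Genes supplying taurine and sulfate for conjugation were divided, with large differences in 2 taurine genes that had few reads in wild type. Of 16 rows 11 were kept, with a median log2 ratio of -0.12 (0.12 with library totals), 2 higher and 0 lower by 2-fold, against 5.40% and 6.40% of all kept rows. CSAD, which makes the precursor of taurine, had 4 reads in wild type and 349 in ambp-/- liver, 0.279 and 17.4 CPM. The taurine carrier gene SLC6A6 (ENSDARG00000098438) had 3 and 46 reads, 11.0-fold higher (3.53 to 55.2), from 0.209 CPM in wild type. Both reached 1 CPM through the knockout library alone. The gene PAPSS2 of the sulfate donor's synthesis (ENSDARG00000071021) stood at 192 and 154 CPM, 1.24-fold lower (1.18 to 1.31). The sulfotransferase gene sult2st2 stood at 58.2 and 46.5 CPM, 1.25-fold lower (1.14 to 1.38). Its fractional reads add to a whole number with those of sult2st1, and their sum had a ratio of 0.788 (0.719 to 0.864). With library totals the PAPSS2 and sult2st2 log2 ratios were -0.06 and -0.07.

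Receptors and regulators known to act on bile acid synthesis lay on both sides of 0. Of 49 rows 40 were kept, with a median log2 ratio of 0.21, 7 higher and 2 lower by 2-fold and 31 between, against 5.40% higher and 6.40% lower over all kept rows. With library totals 10 were higher and 1 lower, with a median of 0.44, and with the hepatocyte list centred also 10 and 1. Higher rows included hnf1bb (ENSDARG00000022295), at 1.67 and 7.83 CPM, the coactivator gene ppargc1b, at 3.83 and 14.7 CPM, and the glucocorticoid receptor gene NR3C1, at 6.69 and 22.6 CPM. The growth factor receptor gene fgfr4, which in mammals carries the signal of FGF19 that represses CYP7A1, had 357 reads in wild type and 1345 in ambp-/- liver. It was 2.70-fold higher (2.40 to 3.04), at 24.9 and 67.1 CPM. In the same list FGF19 (ENSDARG00000098663) had 77 and 53 reads, a log2 ratio of -0.81, and klb had 0 reads in both libraries. The row named FGF19 by its identifier has the deposited symbol FGF4, so its name sources differ. FGF19 and klb were named after their values were seen. The low rows NFIL3 (ENSDARG00000042977), with 9 and 50 reads, and rxraa (ENSDARG00000057737), with 4 and 34 reads, also passed the 2-fold rule. Both reached 1 CPM through the knockout library alone, and their log2 ratios lay inside the rule with 5 CPM added, at 0.41 and 0.34. The gene hnf1bb is also in the bile duct marker list, which summed to 2170 and 2607 CPM, mostly from krt8, krt18a.1 and ANXA4. The part of bile duct cells in the hnf1bb values was not tested.

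Lower rows were CEBPA, a hepatocyte transcription factor gene, 2.79-fold lower (2.17 to 3.62) at 13 and 4.64 CPM, and the clock repressor gene nr1d2a. The latter had 2132 and 1381 reads, 149 and 68.9 CPM, 2.16-fold lower (2.02 to 2.31), and its log2 ratio was -0.85 with library totals, inside the rule. The row nr5a5, a relative of the CYP7A1 activator NR5A2 and the most read over both libraries together, stood at 157 and 82.6 CPM, 1.90-fold lower (1.78 to 2.03). The nr5a5 log2 ratio was -0.92, inside the rule, and -0.67 with library totals. Some receptors were named after their values were seen, for their known role. NR5A2 itself (ENSDARG00000100940) had 74 and 75 reads, 1.38-fold lower, with an interval that includes no difference (0.986 to 1.93). The bile acid receptor gene NR1H4 (ENSDARG00000057741) had 374 and 843 reads, 1.61-fold higher (1.43 to 1.83), while its relative nr1h5 (ENSDARG00000031046) had 1405 and 983 reads, 2-fold lower (1.84 to 2.17). The nr1h5 log2 ratio was -0.98, just inside the rule, and -0.73 with library totals. NR0B2 (ENSDARG00000044685), the small heterodimer partner that represses CYP7A1 in mammals, had 17 and 67 reads, 2.82-fold higher (1.64 to 5.12). This low row, at 1.19 and 3.34 CPM, had a log2 ratio of 0.99, just inside the rule. That ratio was 1.16 with library totals and 0.43 with 5 CPM added. HNF4A (ENSDARG00000021494), an activator of CYP7A1 and CYP8B1 in mammals, had 1668 and 1158 reads, 2.01-fold lower (1.87 to 2.17) without a pseudocount and just inside the rule with it. The HNF4A log2 ratio was -0.75 with library totals.

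**Figure D5:**
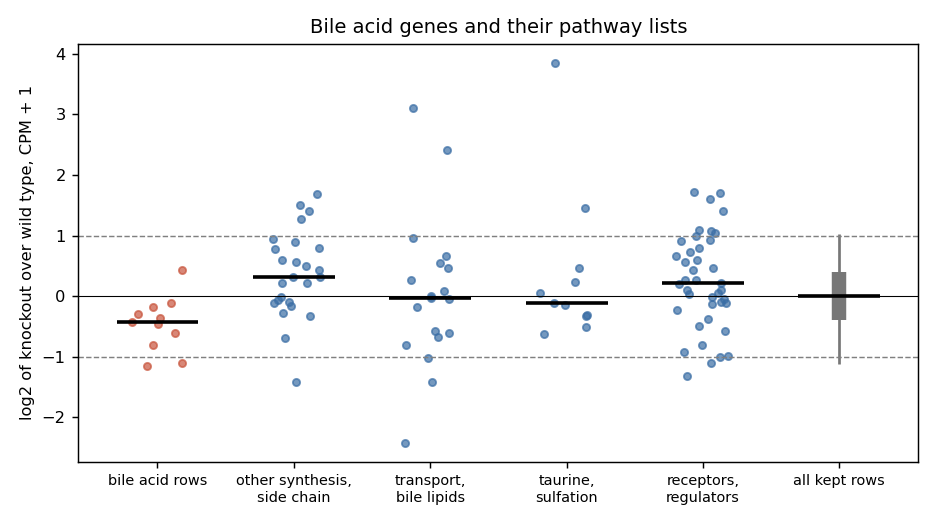
Log2 ratio of knockout over wild type (1 CPM added) for the 11 kept bile acid rows and the kept rows of the 4 pathway lists, 1 point per row (horizontal scatter within a column has no meaning), with black bars at the medians. For all kept rows the thick bar spans the middle 50% and the thin line the middle 90%; dashed lines mark 2-fold. The bile acid median is -0.43 and the other medians are 0.32, -0.03, -0.12 and 0.21, against 0.00 for all kept rows.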

How the data were processed

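Liver poly(A) RNA was enriched with oligo(dT) beads and made into libraries with the NEBNext Ultra RNA kit, per the labels' protocols. The submitters' processing notes name HISAT2, featureCounts and the build GRCz11 but neither versions nor roles. Estimated counts and FPKM values were deposited, per the file headers. The counts were not whole for 5.45% of wild-type and 6.01% of knockout rows, for a reason not given in the sources used here. All 4 sample columns were used.

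Estimated counts were rounded to whole numbers and scaled with TMM factors of 0.916 and 1.09 (edgeR 4.0.16, R 4.3.3). The filter asked for 1 CPM or more in either library and kept 11634 of 25939 rows. Log2 ratios use a pseudocount of 1 CPM, which understates low genes; folds use none. Intervals at 95% are exact Poisson for levels, exact conditional binomial for folds and conditional odds ratios for within-library ratios (scipy 1.17.1). They cover counting error only and take reads as independent molecules, which PCR reads without molecular identifiers are not.

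Names came from an Ensembl name table by identifier (23499 rows), then from the deposited symbol where the identifier had no name. Named genes were every member, and of each list the rows past 2-fold with at least 20 reads in a library and the 2 rows with most reads. With 2 libraries, no genes of like pattern were sought. Members and lists were chosen with earlier results of these data known. The scaling and ratio steps were run on simulated Poisson counts with known folds. Those counts hold no variation between fish, no PCR copies and no reads shared between genes, so they cannot test these limits. Alternatives were 4 other scalings, 2 pseudocounts, FPKM, 2 filters, 2 fold limits, the mean, summed copies and other member choices. Some genes that this rule names are left out of the text. No reference sequences were used here, so none are printed.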

Additional observations from a re-analysis of the deposited data

How the results depend on the processing

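No paired analysis was possible because each genotype has 1 library, and no replicate could be left out. Scaling by fabp10a, adding cyp27a2 and cyp27a3, and leaving out ENSDARG00000004051 were chosen after seeing the data. The median of the bile acid rows less that of all kept rows was -0.43 and stayed below 0 under each alternative tried, moving furthest to -0.32 with 5 CPM added, -0.34 with FPKM, -0.30 with the 10 CPM filter and -0.32 with copies summed. The bile acid median itself was -0.18 with library totals and with FPKM, -0.31 with the hepatocyte list centred, -0.32 with 5 CPM, -0.33 with copies summed and 0.17 when scaled by fabp10a. Bile acid rows lower by 2-fold numbered 1 with library totals, fabp10a or the 10 CPM filter, 0 with 5 CPM, FPKM, summed copies or a 4-fold limit, and 4 at 1.5-fold; 1 was higher with fabp10a. The median of all kept rows was 0.22 with library totals, 0.11 with the hepatocyte list, 0.53 with fabp10a, 0.16 with FPKM and -0.10 with the 10 CPM filter. All kept rows higher and lower numbered 1071 and 485 with library totals, 2459 and 282 with fabp10a, 1904 and 1971 for the 1.5-fold limit, 1279 and 1212 after adding 0.1 CPM, 59 and 91 for the 4-fold limit, 151 and 319 after adding 5 CPM and 227 and 433 under the 10 CPM filter; FPKM gave 349 lower. Filters and limits change these counts by construction; otherwise the cause was not tested. Signs differed for 2 of 11 bile acid rows with library totals or FPKM, 1 with the hepatocyte list, 6 with fabp10a and 0 with DESeq2 size factors.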

Other observations

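Values for 4 further genes of side-chain shortening and of the alternative route were chosen after their values were seen. The peroxisomal carrier gene ABCD3 (ENSDARG00000104085), which brings the sterol side chain into peroxisomes, had 3814 reads in wild type against 9135, that is 266 and 456 CPM, 1.71-fold higher in the knockout library (1.65 to 1.78). HSD17B4 (ENSDARG00000101239), an enzyme of peroxisomal shortening, stood at 85.1 and 116 CPM, 1.37-fold higher (1.27 to 1.46). AMACR (ENSDARG00000057435), the racemase that acts on the side chain, stood at 6.07 and 8.98 CPM, 1.48-fold higher (1.14 to 1.94). CYP7B1 (ENSDARG00000008858), which in mammals hydroxylates oxysterols in the alternative route, had 5 and 30 reads, 4.29-fold higher (1.65 to 14.2), and reached 1 CPM through the knockout library alone.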
